A study of Mus musculus with 4 samples.

Results

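The GIMAP genes (GTPases of the immunity-associated protein family) encode small GTP-binding proteins of lymphocytes and lie side by side in a single cluster. All 8 members of the mouse family with a row in the count files were taken by their symbols: *Gimap1*, *Gimap3*, *Gimap4*, *Gimap5*, *Gimap6*, *Gimap7*, *Gimap8* and *Gimap9*, of 27998 genes in all. The members held 30153 of the 9151263 unique molecular identifiers (UMIs, 1 per captured transcript copy) in 5299 kept cells.

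T cells were enriched from the blood of C57BL/6 mice on day 18 after subcutaneous injection of MC-38 colorectal tumor cells, and their transcripts were counted cell by cell in droplets (scRNA-seq). The mice were 6 to 8 weeks old at the start. Each of 4 groups has 1 library, and all 4 groups carried the tumor: untreated mice, mice given the blocking antibody anti-PD-L1 on days 10, 13 and 17, mice given the agonistic anti-OX40 antibody with CpG, an immunostimulatory oligonucleotide, on day 7 (anti-OX40/CpG), and mice given both regimens (PDOX). The number of mice per library is not stated in the sources used here, so mouse, library and treatment cannot be told apart. Values for several libraries are given in the order untreated, then anti-PD-L1, then anti-OX40/CpG, then PDOX. Comparisons between cell types and between T cell states were therefore made inside libraries, with libraries as replicates. These replicates carry different treatments. The p-values weigh a difference between subsets against the variation left after differences shared by all subsets of a library have been taken out.

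GIMAP proteins sit on intracellular membranes or in the cytosol of lymphocytes, and several are needed for T cells to survive outside the thymus. GIMAP5 is a membrane protein of the endolysosomal system whose loss leaves rats and mice short of T cells. GIMAP1 is needed for the survival of mature T and B cells, GIMAP4 was linked to T cell apoptosis, GIMAP3 to the sorting of mitochondrial DNA in blood cells, and GIMAP6 binds the autophagy protein GABARAPL2. GIMAP7 is a soluble GTPase that hydrolyses GTP as a dimer, and GIMAP8 carries more than 1 GTPase domain in a single chain.

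The 8 genes span 124 kb of chromosome 6 (chr6:48647186-48770851, GRCm38.p6, which is mm10, RefSeq annotation). In the order of the chromosome they are *Gimap8* (chr6:48647186-48660875), *Gimap9* (chr6:48676121-48679116), *Gimap4* (chr6:48684578-48692062), *Gimap6* (chr6:48701583-48708244), *Gimap7* (chr6:48718621-48724636), *Gimap1* (chr6:48739047-48743795), *Gimap5* (chr6:48746197-48754200) and *Gimap3* (chr6:48764464-48770851). *Gimap6* and *Gimap3* lie on the minus strand and the other 6 on the plus strand. *Gimap6* and *Gimap7* are neighbors that point away from each other, with start sites 10377 bases apart. They are shown here because they moved in opposite directions between naive and effector CD4 T cells. Their promoter windows from RefSeq run from 250 bases before the start site to 50 after it, 5′ to 3′ on the gene's own strand, with the bases from the start site on in capitals (*Gimap6* at chr6:48708195-48708494, minus strand, *Gimap7* at chr6:48718371-48718670, plus strand):
Gimap6: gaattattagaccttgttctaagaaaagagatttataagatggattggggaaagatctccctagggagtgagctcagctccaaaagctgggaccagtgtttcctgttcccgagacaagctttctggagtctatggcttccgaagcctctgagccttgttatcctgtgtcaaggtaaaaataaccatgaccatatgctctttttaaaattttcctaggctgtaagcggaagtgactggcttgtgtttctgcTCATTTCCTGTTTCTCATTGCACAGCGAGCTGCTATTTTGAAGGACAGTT
Gimap7: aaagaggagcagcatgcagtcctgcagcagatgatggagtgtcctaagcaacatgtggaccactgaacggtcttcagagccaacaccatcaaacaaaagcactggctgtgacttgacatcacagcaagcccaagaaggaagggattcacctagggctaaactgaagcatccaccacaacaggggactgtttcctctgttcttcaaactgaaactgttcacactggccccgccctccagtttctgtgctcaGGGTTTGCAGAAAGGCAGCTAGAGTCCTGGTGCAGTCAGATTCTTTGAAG

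The searched motifs were the ETS motif CCGGAAGT, the RUNX motif TGTGGTT, the TCF/LEF motif CTTTGAT and the KLF motif CCACACCC, all on both strands and none part of another. None of the 9 RefSeq promoter windows of the members held any of these letters. Of all 32851 windows of this length, 3.89%, 5.27%, 3.73% and 3.56% held them, in the same order. The absence of these letters from a window says nothing about binding of a factor.

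Depth ranged from 2392650 to 4969885 UMIs per library. After ribosomal, hemoglobin and mitochondrial genes had been set aside, kept cells had a median of 1434 to 1618 UMIs. The untreated library held more hemoglobin RNA (7.99% of UMIs) than the other 3 (0.344% to 1.70%). Pairs of libraries shared between 1 and 6 cell barcodes. Cells were gated on raw UMIs: CD8 T and CD4 T cells by at least 2 UMIs of the Cd3 genes and at least 1 of *Cd8a*/*Cd8b1* or of *Cd4*, and natural killer (NK) cells, B cells and monocytes by their own genes without a Cd3 UMI. This placed 3029 of the 5299 kept cells in a gate, between 51.9% and 60.5% of the kept cells of each library. The cells in no gate enter no level of a gate or subset. The gates other than the T gates were small, with 65 NK cells, 133 B cells and 53 monocytes in all. Levels are UMIs per 10000 UMIs of the gate. A set of T cell genes outside the gates (*Bcl11b*, *Themis*, *Lat*, *Cd28*) stood between 16.5 and 22.4 per 10000 in the T gates, between 0.783 and 1.31 in B cells, between 0.955 and 3.25 in NK cells and between 0 and 2.11 in monocytes.

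The GIMAP family was high in all lymphocyte gates and low in monocytes. The summed level of the 8 members was 37.3 ± 3.21 per 10000 in CD4 T cells (SD, n = 4 libraries), 35.0 ± 4.63 in NK cells (n = 3), 33.5 ± 3.56 in CD8 T cells (n = 4), 28.3 ± 2.81 in B cells (n = 3) and 2.25 ± 0.627 in monocytes (n = 2), counting libraries with at least 10 cells of the gate. From CD4 T to NK and from NK to CD8 T cells, each level lay within 1 SD of the next in this order. The order rests on leaving out ribosomal, mitochondrial and hemoglobin genes: with all genes kept, the levels were 26.6 in NK, 21.9 in CD4 T, 17.8 in CD8 T and 17.5 in B cells and 1.73 in monocytes. Over all libraries, the summed level was 17.9-fold higher in CD8 T cells than in monocytes (95% interval 12.4 to 26.7, exact conditional binomial, counting error only). With cells thinned to 750 UMIs the mean levels were 34.5 in CD8 T cells and 4.23 in monocytes, the latter from 6 and 5 UMIs in 2 libraries, so that the fold is smaller there. Between CD8 T and B cells the same ratio was 1.21 (1.11 to 1.33), while that of the T cell genes outside the gates was 17.5 (11.1 to 29.6). Family UMIs in B cells stood near the T cell level, and T cell genes did not. The part of T cell RNA in the B cell values was not tested.

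At least 1 family UMI was found in 97.9% of 1965 CD8 T cells, 98.4% of 813 CD4 T cells, all 65 NK cells and 92.5% of 133 B cells. In monocytes, which have more UMIs per cell (median 2162 beside 1688 in CD8 T cells), the share was 41.5% of 53 cells (95% Clopper-Pearson interval 28.1 to 55.9). With every cell thinned to 750 UMIs, it was 90.3% in CD8 T cells and 22.4% in monocytes. The median CD8 T cell held UMIs of 3 different members and the median CD4 T cell of 4.

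**Figure D1:**
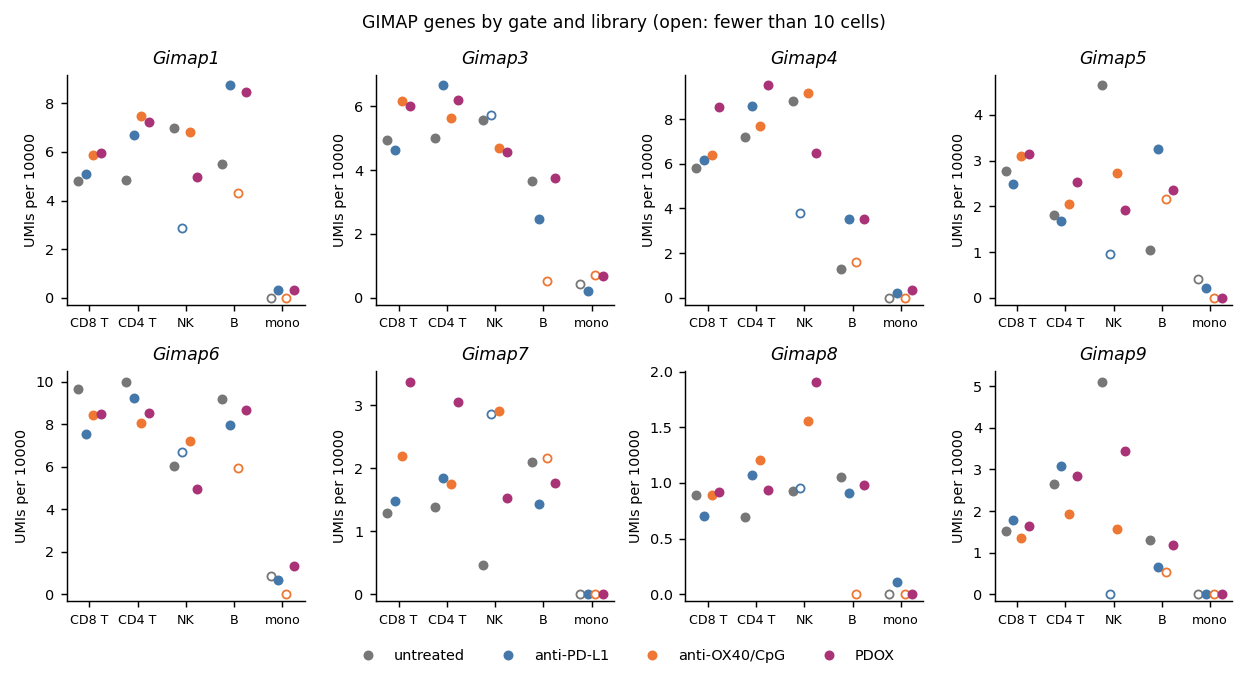
Level of each GIMAP gene (y axes, UMIs per 10000 UMIs of the gate) in 5 gates (x axes), 1 point per library, open where the library had fewer than 10 cells of the gate. All members sit near 0 in monocytes, and *Gimap4* and *Gimap3* sit lower in B cells than in T cells.

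In monocytes, all 8 members were lower than in CD8 T cells (edgeR quasi-likelihood test with the library as a block, adjusted p between 5.3e-07 and 0.0099), beside 13.1% of the 3649 genes tested that were lower. The comparison rests on the anti-PD-L1 (24 monocytes) and PDOX (17 monocytes) libraries, since the other 2 libraries had 6 monocytes each. *Gimap4* had 3 UMIs in all 53 monocytes, a level 34.8-fold lower than in CD8 T cells (11.9 to 169). *Gimap6* had 12 UMIs there, the most of any member, and stood 10.8-fold lower (6.15 to 20.8). *Gimap7* and *Gimap9* had none. Against a floor of 3 UMIs over the 4 libraries, *Gimap7* was at least 10.9-fold lower and *Gimap9* at least 8.22-fold lower, and 0 of 53 cells allows a share of up to 5.66% of monocytes with a UMI. *Gimap8*, with 1 UMI in monocytes, had a ratio of 13 (2.31 to 515), and its call was lost without the anti-PD-L1 library (adjusted p = 0.16) and without the PDOX library (adjusted p = 0.076).

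In B cells, 3 of the 8 members differed from CD8 T cells, beside 20.1% of the 3649 genes tested: *Gimap1* was higher, *Gimap4* and *Gimap3* lower. *Gimap4* stood at 1.31, 3.52 and 3.54 per 10000 in the B cells of the untreated, anti-PD-L1 and PDOX libraries and at 5.82, 6.16 and 8.53 in their CD8 T cells. The B cell values all lay below the CD8 T values, and the log2 change was -1.18 (SE 0.24, adjusted p = 0.0011). *Gimap3* stood at 3.67, 2.48 and 3.74 in B cells and at 4.95, 4.62 and 6.01 in CD8 T cells (log2 change -0.72, SE 0.22, adjusted p = 0.023). *Gimap1* stood at 5.51, 8.74 and 8.46 in B cells and at 4.80, 5.10 and 5.96 in CD8 T cells (log2 change 0.57, SE 0.18, adjusted p = 0.026). The *Gimap1* groups overlapped, with the untreated B cells below the PDOX CD8 T cells, although B cells were the higher in each of the 3 libraries. The *Gimap3* and *Gimap1* calls were each lost without the anti-PD-L1 library (adjusted p = 0.12 and 0.31) and without the anti-OX40/CpG library (0.058 and 0.054), and that of *Gimap1* also without the PDOX library (0.16), whereas *Gimap4* passed without any single library. The other 5 members had log2 changes between -0.81 (*Gimap9*) and 0.29 (*Gimap8*). *Gimap9* passed without the filter on low counts (-1.09, adjusted p = 0.039) and with at least 20 cells asked for (-0.97, adjusted p = 0.035). As a share of the family UMIs, *Gimap4* made up 10.5% in B cells and 20.1% in CD8 T cells, and *Gimap1* 27.5% and 16.5%.

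**Figure D2:**
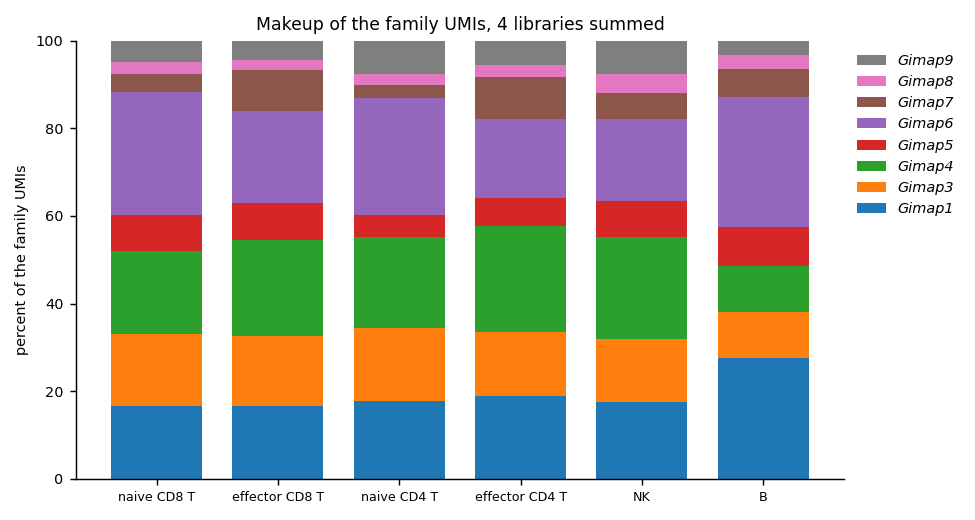
Share of each member (y axis, percent) in the family UMIs of 6 cell groups (x axis), with the 4 libraries summed. B cells hold a smaller share of *Gimap4* and a larger share of *Gimap1* than the T cell subsets, and the *Gimap7* share is larger in effector than in naive T cells.

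In NK cells, 1 of the 8 members differed from CD8 T cells, beside 11.0% of the 3649 genes tested. *Gimap9* stood at 5.11, 1.56 and 3.44 per 10000 in the NK cells of the untreated, anti-OX40/CpG and PDOX libraries and at 1.53, 1.36 and 1.64 in CD8 T cells (log2 change 0.98, SE 0.30, adjusted p = 0.043). It rests on 28 NK cell UMIs, and the call was lost without the untreated (adjusted p = 0.51), the PDOX (0.25) or the anti-PD-L1 library (0.055). The log2 change fell to 0.07 (adjusted p = 0.96) with cells thinned to 750 UMIs and to 0.16 (0.95) where at least 20 cells were asked for. The other 7 log2 changes lay between -0.45 (*Gimap6*) and 0.79 (*Gimap8*). *Gimap6* passed without the filter on low counts (-0.84, adjusted p = 0.019). Against effector CD8 T cells, the T cells nearest to NK cells in function, none of the 7 members tested passed, beside 18% of 1214 genes. At an unadjusted p under 0.05 edgeR gave 1 member (*Gimap9*, log2 change 0.95, SE 0.36), beside 28.5% of all genes, and DESeq2 called none. *Gimap9* passed with all genes kept (0.99, adjusted p = 0.03). It also passed with the 5% of gated cells with the most UMIs left out (1.10, adjusted p = 0.028). *Gimap8* did not pass the filter on low counts in this comparison.

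Between CD4 and CD8 T cells, *Gimap9* differed. The summed family was 0.876 times as high in CD8 as in CD4 T cells over all libraries (0.848 to 0.905, counting error only). Between the whole gates 1 of the 8 members passed, beside 4.19% of the 3649 genes tested. *Gimap9* stood at 2.64, 3.07, 1.93 and 2.85 per 10000 in the CD4 T cells of the 4 libraries and at 1.53, 1.79, 1.36 and 1.64 in their CD8 T cells, groups that did not overlap (log2 change 0.66, SE 0.13, adjusted p = 0.0037). *Gimap5* ran the other way, at 1.81, 1.68, 2.06 and 2.54 in CD4 and 2.77, 2.48, 3.10 and 3.15 in CD8 T cells, lower in CD4 T cells in 4 of 4 libraries (log2 change -0.54, SE 0.16), but missed the threshold (adjusted p = 0.057), and passed under 4 of the alternatives (log2 changes between -0.58 and -0.55). Without the library block the *Gimap9* call was lost (log2 change 0.67, adjusted p = 0.072), as it was without the PDOX library (adjusted p = 0.082). With the 5% of gated cells with the most UMIs left out, *Gimap1* passed (log2 change 0.28, adjusted p = 0.041).

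The gates hold unequal parts of naive and effector cells, so the lineages were also compared at the same state. T cells were called naive with at least 2 UMIs of a list of 7 genes (among them *Ccr7*, *Lef1*, *Tcf7*, *Dapl1*, *Igfbp4* and *Actn1*) and more than of the effector list, and effector with at least 5 UMIs of a list of 15 genes (*S100a4*, *Lgals1*, *Id2*, *Ccl5*, *Nkg7*, *Cxcr3*, granzymes, *Klrk1*, *Klrg1*, *Itgb1*, *Ccr2*, *Cxcr6*, *Ahnak*) and at least 2 times the naive list. No GIMAP gene is in either list. In naive cells, *Gimap9* stood at 2.94, 3.23, 2.27 and 4.03 per 10000 in CD4 and at 1.48, 1.78, 1.21 and 1.94 in CD8 T cells. Every naive CD4 value lay above every naive CD8 value, and the log2 change was 0.92 (SE 0.15, adjusted p = 3.7e-05), the one member of 8 that passed, beside 3.95% of the 4910 genes tested. The call held under each of 16 alternatives, with log2 changes between 0.86 and 0.97. *Gimap4* (0.41, adjusted p = 0.068), *Gimap1* (0.35, adjusted p = 0.10) and *Gimap5* (-0.48, adjusted p = 0.095) missed the threshold, each in the same direction in 4 of 4 libraries. *Gimap4* passed under 6 of the alternatives (log2 changes between 0.36 and 0.51) and *Gimap5* under 2. *Gimap3* (0.28) and *Gimap6* (0.22) were also higher in 4 of 4 libraries, and *Gimap8* (0.07) and *Gimap7* (-0.23) were not of 1 direction. At an unadjusted p under 0.05 edgeR gave 5 of the 8 members, beside 14.6% of all genes. The summed family stood at 39.1, 41.2, 39.0 and 40.3 per 10000 in naive CD4 T cells, above each of the naive CD8 values of 31.8, 30.9, 31.6 and 36.0.

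Naive and effector T cells were compared next, since effector cells made up 11.3%, 18.4%, 35.3% and 60.7% of the CD8 T gate in the 4 libraries and 8.14%, 9.50%, 32.2% and 59.0% of the CD4 T gate. The summed family stood at 32.6 ± 2.33 per 10000 in naive and 34.8 ± 5.33 in effector CD8 T cells (n = 4). In CD4 T cells it stood at 39.9 ± 1.04 in naive (n = 4) and 31.4 ± 10.2 in effector cells (n = 3). Inside the 4 libraries, its effector to naive ratio was 1.02, 0.918, 1.24 and 1.09 in CD8 T cells. In CD4 T cells of the 3 treated libraries it was 0.501 (0.390 to 0.635, counting error only), 0.842 (0.761 to 0.931) and 1.01 (0.919 to 1.12). With all genes kept, the effector CD8 level stood further above the naive level, as given at the end. No test was made of the sum. The makeup of the family differed between the states. *Gimap7* was the higher in effector cells of both lineages, and *Gimap6*, *Gimap9* and *Gimap3* the lower in effector CD4 T cells.

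*Gimap7* stood at 1.13, 1.25, 1.30 and 1.82 per 10000 in the naive CD8 T cells of the 4 libraries and at 2.25, 2.11, 3.49 and 4.17 in the effector CD8 T cells of the same libraries. Every effector value lay above every naive value. The fitted log2 change was 1.22 (SE 0.16, a fold of 2.33, adjusted p = 2.4e-07), with 2 of the 8 members passing beside 19.9% of the 4910 genes tested. It passed under each of 16 alternatives, with log2 changes between 1.01 and 1.57, also without any single library. *Gimap7* UMIs were found in 17.2% of naive (15.0 to 19.7) and 39.7% of effector CD8 T cells (35.9 to 43.7), at median depths of 1615 and 1962 UMIs, and in 8.41% (6.75 to 10.3) and 19.8% (16.7 to 23.2) once each cell was thinned to 750 UMIs. Of the family UMIs, *Gimap7* took 4.09% in naive and 9.22% in effector CD8 T cells.

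In CD4 T cells *Gimap7* stood at 1.62, 0.868 and 1.15 per 10000 in the naive and at 1.39, 2.99 and 3.93 in the effector cells of the 3 treated libraries. The effector cells were the higher in 2 of 3 libraries, and in the anti-PD-L1 library, which had 17 effector CD4 T cells and 5 *Gimap7* UMIs in them, the values were close. The untreated library had 7 effector CD4 T cells and entered with its naive cells (1.10) alone. The fitted log2 change was 1.26 (SE 0.23, adjusted p = 8.2e-05), 1 of 4 members that passed, beside 17.5% of the 4910 genes tested. When cells were split by *Id2* UMIs alone instead of the lists, the change was 0.28 and did not pass (adjusted p = 0.61). The difference between the lineages in this change was 0.04 (SE 0.28).

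*Gimap6*, the autophagy-linked member, was lower in effector CD4 T cells. It stood at 10.4, 9.55 and 11.4 per 10000 in naive and at 2.79, 6.14 and 7.44 in effector CD4 T cells of the 3 treated libraries, with no overlap (log2 change -0.79, SE 0.15, adjusted p = 1.4e-04). In the untreated library the naive cells stood at 12.8 and the 7 effector cells held 3 *Gimap6* UMIs. In CD8 T cells *Gimap6* stood at 10.2, 8.40, 8.49 and 9.64 in naive and at 8.68, 5.81, 8.43 and 7.92 in effector cells of the 4 libraries, values that overlapped between the groups but were the lower in effector cells in 4 of 4 libraries (log2 change -0.18, SE 0.12, adjusted p = 0.30). With the split and the levels both taken in cells thinned to 750 UMIs, the CD4 change was -0.45 and did not pass (adjusted p = 0.23).

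*Gimap9* stood at 3.23, 2.27 and 4.03 per 10000 in naive and at 1.39, 1.60 and 2.32 in effector CD4 T cells of the same 3 libraries (log2 change -0.64, SE 0.18, adjusted p = 0.011). The effector cells were the lower in 3 of 3 libraries, although the PDOX effector value lay just above the anti-OX40/CpG naive value. *Gimap3* stood at 6.96, 6.66 and 6.69 in naive and at 4.18, 4.44 and 5.89 in effector CD4 T cells, with no overlap (log2 change -0.46, SE 0.16, adjusted p = 0.046). Both calls were lost without 1 library: that of *Gimap9* without anti-OX40/CpG (adjusted p = 0.051) or PDOX (adjusted p = 0.08), and that of *Gimap3* without anti-PD-L1 (adjusted p = 0.19) or anti-OX40/CpG (adjusted p = 0.34). The *Gimap3* call was lost under 12 of 16 alternatives. In CD8 T cells the log2 changes of *Gimap9* and *Gimap3* were 0.08 (SE 0.15) and 0.16 (SE 0.13).

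*Gimap4* passed in CD8 T cells, at 5.76, 6.05, 5.56 and 7.35 per 10000 in naive and 5.24, 6.69, 7.77 and 9.25 in effector cells (log2 change 0.35, SE 0.13, adjusted p = 0.046). The untreated library ran against the others, and the call was lost under 9 of 16 alternatives, among them without the anti-OX40/CpG (adjusted p = 0.40) or PDOX library (adjusted p = 0.16). The members that did not pass had log2 changes between -0.18 and 0.20 in CD8 T cells (*Gimap1*, *Gimap3*, *Gimap5*, *Gimap6*, *Gimap8*, *Gimap9*) and between -0.11 and 0.16 in CD4 T cells (*Gimap1*, *Gimap4*, *Gimap5*, *Gimap8*). For *Gimap5*, the best known survival gene of the family, they were 0.18 (SE 0.14) and 0.16 (SE 0.21). The median log2 change of the 8 members was 0.17 in CD8 and -0.10 in CD4 T cells, beside 0.01 and -0.01 for all genes tested.

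**Figure D3:**
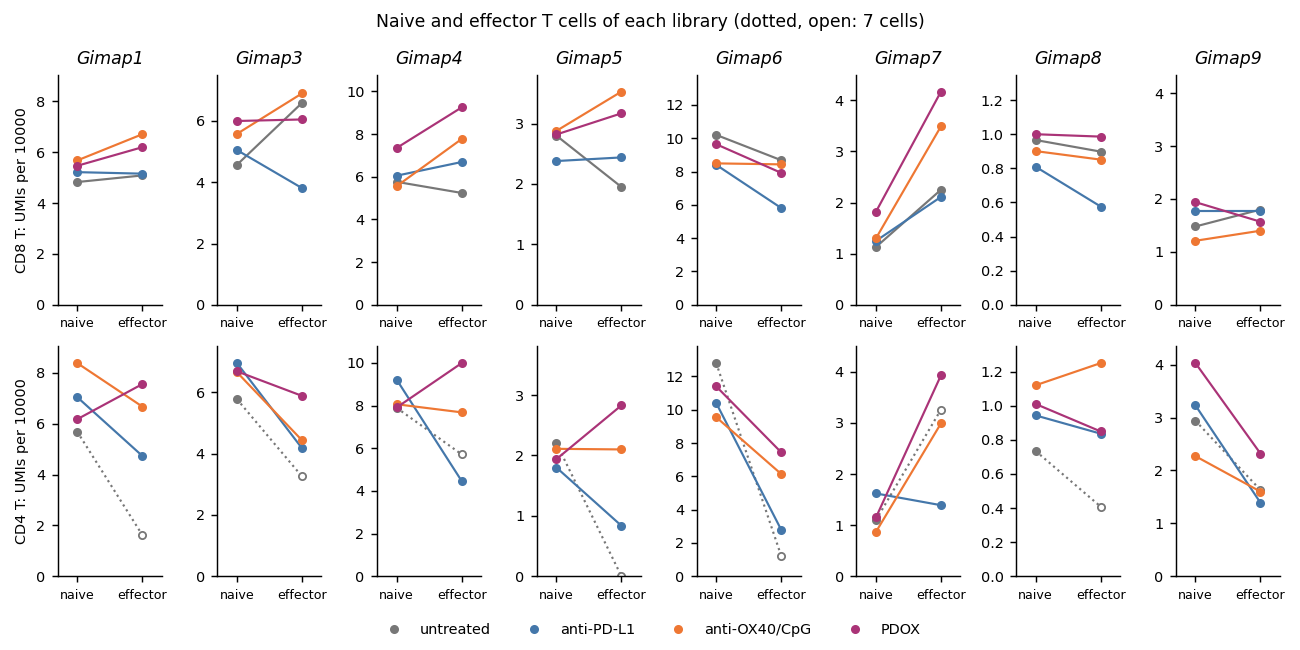
Level of each member (y axes, UMIs per 10000) in naive and effector CD8 T cells (upper row) and CD4 T cells (lower row), with a line joining the 2 states of each library and a dotted line and open point for the 7 effector CD4 T cells of the untreated library. *Gimap7* goes up in all 4 libraries in CD8 T cells and in 2 of the 3 treated libraries in CD4 T cells. *Gimap6* goes down in each of the 3 treated libraries in CD4 T cells. The point of 7 cells entered no test.

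The lineages were then set against each other. In the test of the difference between the effector against naive change of CD4 and of CD8 T cells, 0 of the 8 members passed, beside 0.713% of the 4910 genes tested, and DESeq2 called none either. At an unadjusted p under 0.05 edgeR gave 4 members, all with the change lower in CD4 T cells, beside 8.90% of all genes. These were *Gimap6* (-0.60, SE 0.19), *Gimap9* (-0.72, SE 0.23), *Gimap3* (-0.61, SE 0.20) and *Gimap4* (-0.45, SE 0.20), with adjusted p between 0.13 and 0.43. A lower *Gimap6*, *Gimap9* or *Gimap3* in effector cells is therefore not shown to be particular to CD4 T cells. With the 5% of gated cells with the most UMIs left out, *Gimap6* (-0.67, adjusted p = 0.012) and *Gimap3* (-0.63, adjusted p = 0.039) passed this test.

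**Figure D4:**
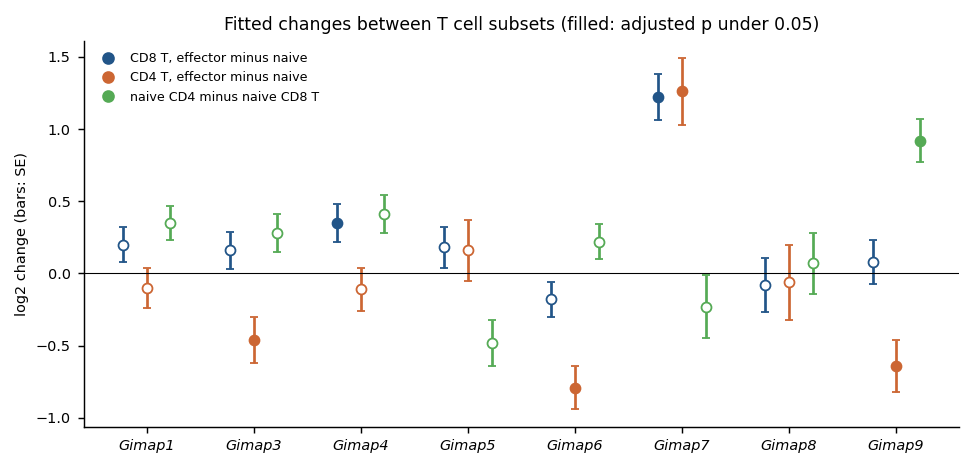
Fitted log2 change of each member (y axis, bars show the SE) in 3 comparisons of T cell subsets, filled where the adjusted p was under 0.05. *Gimap7* lies at 1.22 and 1.26 in CD8 and CD4 effector against naive cells, *Gimap6*, *Gimap9* and *Gimap3* lie below 0 in CD4 T cells, and *Gimap9* lies at 0.92 in naive CD4 against naive CD8 T cells.

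Lists of genes used as markers of other cells mostly stood higher in effector than in naive T cells, and their part in these changes was not tested. The lists do not separate RNA of other cells from genes that effector T cells express themselves. The study reported higher *Ccr2* and *Ikzf2* in its *Id2*-positive CD4 T cells. It also reported lower *Lyz2*, another gene of the monocyte list, in its *Id2*-positive CD4 and CD8 T cells. The list of 9 monocyte markers, which shares *Ccr2* with the effector list, stood between 12.3 and 16 per 10000 in naive and between 22.7 and 51.2 in effector CD8 T cells. It stood between 7.33 and 8.35 in naive CD4 T cells, between 9.18 and 16.3 in the effector CD4 T cells of the treated libraries and at 180 in the 7 effector CD4 T cells of the untreated library, which entered no test and where the T cell genes outside the gates stood at 6.52 (16.4 to 22.2 in the treated libraries). The list of 8 NK markers, which shares *Gzma* with the effector list, stood between 5.12 and 6.08 in naive CD8 T cells, at 5.84 in the effector CD8 T cells of the untreated library and between 29.1 and 38.3 in those of the treated libraries. In CD4 T cells it stood between 0.744 and 1.56 in naive cells and at 1.22, 9.48, 2.49 and 14.8 in effector cells. The list of 4 regulatory T cell markers (*Foxp3*, *Il2ra*, *Ikzf2*, *Ctla4*) stood between 0.248 and 1.08 in naive and between 3.48 and 9.48 in effector CD4 T cells. *Gimap7* had no UMI in the 53 monocytes and 23 UMIs in the 65 NK cells. The part of RNA from either cell type in the *Gimap7* change was not tested.

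Genes that share pathways with the family were read from 3 lists, beside 19.9% of all genes tested that were called in CD8 and 17.5% in CD4 T cells. Of 12 tested genes of T cell survival and quiescence, 9 were lower and 1 higher in effector than in naive CD8 T cells, and likewise 9 and 1 in CD4 T cells, with median log2 changes of -0.72 and -0.80. Of 11 tested BCL2 family and autophagy genes, 2 were higher and 1 lower in each lineage, a share near that of all genes. Of 6 tested guanylate-binding and related immune GTPases, 2 were lower in CD8 and 1 in CD4 T cells, and none was higher. The 6 list members called in both lineages with the largest changes were *Satb1*, a chromatin organizer of T cells (log2 changes -1.18 in CD8 and -2.18 in CD4 T cells), *Tsc22d3*, the glucocorticoid-induced leucine zipper (-1.32 and -1.26), *Foxp1*, a transcription factor of naive T cell quiescence (-0.94 and -1.61), the anti-apoptotic *Bcl2* (-0.54 and -1.92), the interferon-inducible GTPase *Igtp* (-0.95 and -0.75) and the anti-apoptotic *Bcl2l1* (1.06 and 1.5). *Gabarapl2*, which encodes the autophagy partner of GIMAP6, rose in both lineages (0.87 and 0.51). In the test of the difference between lineages 1 listed gene passed, *Bcl2*. Its fall from naive to effector cells was larger in CD4 T cells (log2 difference -1.38, SE 0.26, adjusted p = 0.0038).

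Across libraries the summed family differed little in naive cells. It stood at 31.8, 30.9, 31.6 and 36.0 per 10000 in the naive CD8 T cells of the 4 libraries, a PDOX to untreated ratio of 1.13 (1.02 to 1.26, counting error only). In naive CD4 T cells it stood between 39.0 and 41.2. Effector CD8 T cells stood at 32.5, 28.4, 39.1 and 39.3, and effector CD4 T cells at 17.1 (7 cells), 20.6 (17 cells), 32.9 (83 cells) and 40.8 (171 cells). The effector CD4 ratio to untreated was 2.38 for PDOX (1.75 to 3.32) and 1.92 for anti-OX40/CpG (1.40 to 2.69), but 1.39 and 1.15 as a mean over cells with equal weight. The effector CD4 values were thus lowest in the libraries with the fewest such cells. In the 7 untreated cells under these ratios, the monocyte markers stood at 180 per 10000 and the T cell genes outside the gates at 6.52. Their part in the ratios was not tested. With 1 library per treatment there is no test of any of these differences.

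**Figure D5:**
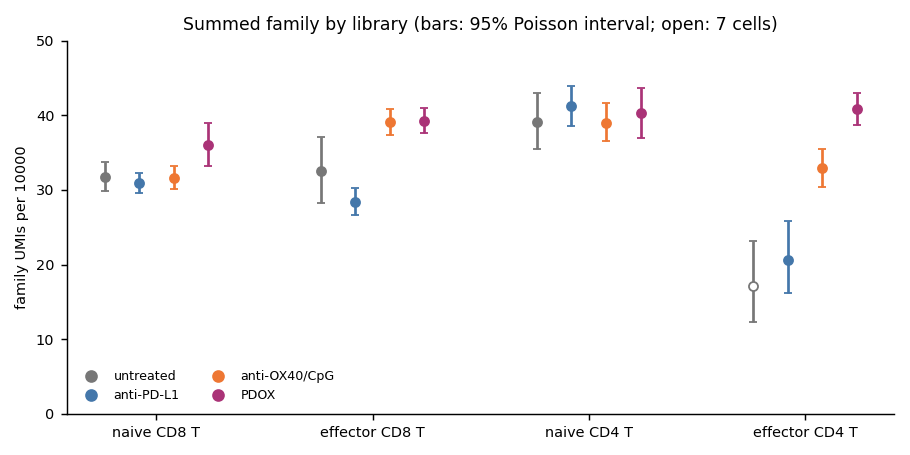
Summed level of the 8 members (y axis, UMIs per 10000) in 4 T cell subsets (x axis) for each library, with 95% Poisson intervals that cover counting error only and an open point for a subset of 7 cells. The naive subsets differ little between libraries, and the effector CD4 T cells run from 17.1 in the untreated to 40.8 in the PDOX library.

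Between treated and untreated libraries, a ratio of at least 1.5 either way was reached in effector CD8 T cells by 3 of 8 members for PDOX (beside 30.6% of 2000 genes with at least 50 UMIs), by 2 of 7 for anti-OX40/CpG (beside 26.9% of 1817) and by 1 of 7 for anti-PD-L1 (beside 25.6% of 1477). The PDOX ratios were 1.86 for *Gimap7* (1.10 to 3.38), 1.77 for *Gimap4* (1.25 to 2.56) and 1.63 for *Gimap5* (0.926 to 3.12). Those of anti-OX40/CpG were 1.82 for *Gimap5* (1.03 to 3.48) and 1.55 for *Gimap7* (0.916 to 2.84). The anti-PD-L1 library was the lower for *Gimap3*, with a ratio of 0.579 (0.410 to 0.832). The untreated library under these ratios held 33 effector CD8 T cells. In naive CD8 T cells 1 of 7 members reached a ratio of 1.5 either way for PDOX, *Gimap7* at 1.62 (0.965 to 2.70), beside 12.1% of 1722 genes, and none of 8 for either single regimen (beside 9.88% of 3268 genes for anti-PD-L1 and 11.3% of 2790 for anti-OX40/CpG). In naive CD4 T cells none of 6 members did so in any treated library (beside 12.0%, 14.4% and 14.5% of the genes for the 3 treated libraries). In the whole CD8 T gate *Gimap7* stood at 1.29, 1.49, 2.20 and 3.38 per 10000 in the 4 libraries, and the share of effector cells in the gate had the same order. Inside the states it stood at 1.13, 1.25, 1.30 and 1.82 in naive and at 2.25, 2.11, 3.49 and 4.17 in effector CD8 T cells. How far either accounts for the values of the gate was not tested.

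Genes with the pattern most like the summed family were looked for over the 20 sums of 5 gates by 4 libraries among 8061 genes, as a description. The 5 genes outside the family with the highest Pearson correlation were *Cd2* (0.946), *Rac2* (0.917), *Tbc1d10c* (0.915), *Ptprcap* (0.905) and *Oaz1* (0.905). *Cd2* encodes an adhesion receptor of T and NK cells and *Ptprcap* a partner of CD45. By Spearman correlation *Cd2* reached 0.800, and none of these 5 was among the 5 highest. The sums share libraries, and those of monocytes, which lie far below the rest, weigh on every such value. The members, each of them a part of the sum, correlated with it between 0.851 (*Gimap9*) and 0.975 (*Gimap1*) by Pearson. By Spearman their values lay between 0.555 (*Gimap7*) and 0.951 (*Gimap4*).

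On either side of the cluster, 2 of the nearest RefSeq genes reached 50 UMIs in all kept cells. *Zfp775* had 60 UMIs, 20 of them in CD8 T cells. *Tmem176b* had 204, with 21 in CD8 T cells, 27 in CD4 T cells and 20 in monocytes, where the 8 GIMAP genes together had 29. Within the cluster, the noncoding genes *4833403J16Rik* and *Gm44226*, which lie between *Gimap5* and *Gimap3* in the GENCODE annotation, had 130 and 34 UMIs, and the read-through gene *Gm28053*, which overlaps *Gimap7*, *Gimap1* and *Gimap5* there, had 12. The last 500 bases of each member's transcripts, where 3′ reads fall, shared no run of 50 bases with another member, and those of *Gimap1* shared 12 such runs with *Gm28053*, so the counts of *Gimap1* are the least certain in this respect. Elsewhere in their transcripts *Gimap3* and *Gimap5* shared 190 such runs.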

How the data were processed

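The 4 treatment groups had 1 library of blood T cells each. Per the study's methods, T cells were isolated with a negative selection kit after red cell lysis, debris was then removed, and libraries were made with the Chromium Single Cell 3′ kit. The authors ran Cell Ranger 2.1.1 and deposited, for each cell, unnormalized whole-number UMI counts of all genes, and their processing notes name mm10 and Seurat 2. The label OX40 was read as anti-OX40/CpG, the study's regimen with that antibody.

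From these deposited counts, 103 ribosomal, 13 mitochondrial and 10 hemoglobin genes were dropped and cells with at least 200 genes kept. Counts were summed per library and subset where a library had at least 10 such cells. They were tested with edgeR 4.0.16 (R 4.3.3; TMM, filter on low counts, quasi-likelihood test, library as a block) and Benjamini-Hochberg adjustment over all genes tested, with calls at an adjusted p under 0.05. The SE is the log2 change divided by the square root of F. The 4 T cell subsets, 5 gates, and NK with effector CD8 T cells were each 1 fit. The block stands for the library that both subsets come from. Poisson, Clopper-Pearson and conditional binomial intervals (95%) cover counting error only. Thinning to 750 UMIs left out 115, 111, 196 and 212 shallower cells of the 4 libraries. No doublet caller was run, and leaving out the 5% of gated cells with the most UMIs was an alternative. Of the listed marker and pathway symbols, 6 had no row, among them the T cell receptor constant genes. The named genes are all 8 members, the 5 genes most like their sum, up to 6 pathway genes called in both lineages with the largest mean change, and neighbors with at least 50 UMIs; *Gabarapl2* was named after its values were seen. Promoters and positions are from RefSeq on GRCm38.p6, and shared runs of bases from GENCODE M39 transcripts. The fits were tested on simulated data in which 200 of the tested genes were changed. At a log2 change of 1, between 6.0% (monocytes against CD8 T cells) and 76.5% (CD4 T against CD8 T gate) were recovered. In effector against naive cells it was 71.5% in CD8 and 43.0% in CD4 T cells. At a log2 change of 0.5, between 0.0% and 15.5% were recovered. A member that did not pass is thus not shown to be unchanged. The members and all lists were chosen with earlier results of these data known. 1 gene of the naive list is not reported here by name.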

Additional observations from a re-analysis of the deposited data

How the results depend on the processing

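Each setting changed 1 choice, except that the split and the levels were also thinned together. Of 1036 values of single members, 882 kept their direction and their side of the threshold, 53 lost a call, 20 gained one and 81, all without a call in either setting, changed sign. The low number of NK cells, B cells and monocytes limits what can be detected there. The cause was not tested for any of these changes.

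The number of genes called in effector against naive CD8 T cells (979) was 407 with cells thinned to 750 UMIs, 326 with the split by *Id2* and 313 with split and levels in thinned cells. In CD4 T cells (858) it was 341, 201 and 209, and 470 to 805 without 1 library (567 without PDOX, 470 without anti-OX40/CpG). For the difference between lineages (35) it was 19 with DESeq2, 11 without the library block, 54 with cells of 200 to 2900 genes, 87 without the 5% of cells with the most UMIs, 0 with the *Id2* split, 14 with split and levels thinned and 11 to 37 without 1 library (11 without anti-OX40/CpG, 20 without untreated). For naive CD4 against naive CD8 (194) it was 115 with DESeq2, 111 without the library block, 109 thinned, 126 with the stricter split, 90 with split and levels thinned and 92 to 179 without 1 library (92 without anti-OX40/CpG). For the CD4 T against the CD8 T gate (153) it was 259 without the filter on low counts, 62 without the library block, 318 without the deepest 5%, 243 with at least 20 cells and 37 to 204 without 1 library (37 without anti-OX40/CpG). For NK against CD8 T (401) it was 621 without the filter, 237 thinned, 184 with at least 20 cells and 149 to 420 without 1 library (149 without anti-OX40/CpG, 257 without untreated). For B against CD8 T (733) it was 451 thinned, and for monocytes (1043) 459 thinned and 403 to 1146 without 1 library (403 without anti-PD-L1). For NK against effector CD8 T (219) it was 100 with DESeq2, 358 with all genes kept, 101 thinned and 64 to 231 without 1 library (64 without anti-OX40/CpG), and at least 20 cells could not be fitted.

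The libraries carry the replicate block, since both subsets of a pair come from the same library. Without the replicate block, calls were lost for *Gimap4* in CD8 T cells (log2 change 0.36, adjusted p = 0.20), *Gimap3* in CD4 T cells (-0.37, 0.22), *Gimap9* between the T gates (0.67, 0.072) and in NK cells (0.91, 0.10) and *Gimap1* in B cells (0.52, 0.084).

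Sign changes of uncalled members were, in log2. In effector against naive CD8 T cells, *Gimap6* was 0.09 with split and levels thinned, *Gimap8* 0.38 with the *Id2* and 0.13 with the stricter split and -0.20 to 0.03 without 1 library, and *Gimap9* -0.03 to 0.19 without 1 library. In CD4 T cells, *Gimap1* was 0.09 thinned, 0.02 without the deepest 5% and 0.34 with split and levels thinned (-0.38 to 0.02 without 1 library), *Gimap4* 0.04 with at least 20 cells (-0.38 to 0.09), *Gimap5* -0.26 to 0.27 without 1 library, and *Gimap8* 0.06 without the block and 0.05 both thinned and without the deepest 5% (-0.27 to 0.16). In the difference between lineages, *Gimap1* was 0.18 with split and levels thinned. *Gimap5* was 0.00 without the filter and with 200 to 2900 genes, 0.03 without the block, 0.01 with all genes and with the stricter split, 0.22 thinned, 0.08 with at least 20 cells and 0.02 with split and levels thinned (-0.41 to 0.18). *Gimap7* was -0.30 thinned, -0.04 without the deepest 5%, -0.73 with the *Id2* split, -0.11 with the stricter split and -0.18 with split and levels thinned (-0.17 to 0.31), and *Gimap8* -0.54 with the *Id2* and -0.15 with the stricter split (-0.11 to 0.36). In naive CD4 against CD8, *Gimap7* was 0.22 with the *Id2* split and *Gimap8* -0.04 to 0.16 without 1 library. Between the T gates, *Gimap6* was -0.02 without the filter (-0.05 to 0.07), *Gimap3* -0.07 to 0.17 and *Gimap7* -0.23 to 0.02 without 1 library. In NK cells, *Gimap1* was -0.18 without the filter and -0.06 thinned, *Gimap4* -0.06 without the filter, *Gimap5* -0.38 without the filter, -0.00 with all genes, -0.01 with 200 to 2900 genes, -0.08 thinned, -0.12 without the deepest 5%, -0.28 with at least 20 cells and -0.03 with up to 1 Cd3 UMI (-0.37 to 0.11), and *Gimap7* 0.21 thinned and 0.38 with at least 20 cells (-1.15 to 0.11). In B cells, *Gimap5* was 0.13 thinned (-0.78 to 0.08), *Gimap6* -0.25 without the filter, -0.02 without the deepest 5% and -0.17 with at least 20 cells (-0.07 to 0.06), and *Gimap7* 0.08 thinned (-0.51 to 0.13). In NK against effector CD8 T cells, *Gimap1* was -0.27 without the filter and -0.04 thinned (-0.21 to 0.23), *Gimap4* -0.17 without the filter (-0.16 to 0.48), and *Gimap5* 0.10 with DESeq2, 0.12 without the block and 0.03 with all genes (-0.59 to 0.30).

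With all genes kept, the summed family level per 10000 was 17.8 in CD8 T, 21.9 in CD4 T, 26.6 in NK and 17.5 in B cells, 15.7 in naive and 20.9 in effector CD8 T and 20.8 in naive CD4 T cells. Thinned, it was 31.2 in B cells and 4.23 in monocytes. As a mean over cells, the effector CD4 ratio to untreated was 1.15 for anti-OX40/CpG and 1.39 for PDOX. The share of cells with a family UMI, thinned, was 90.3% in CD8 T, 91.6% in CD4 T, 93.3% in NK cells, 22.4% in monocytes, 90.4% in naive and 89.9% in effector CD8 T, and 91.8% in naive and 90.9% in effector CD4 T cells.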
